A study of Arabidopsis thaliana with 16 samples.

Results

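The 9 genes of *Arabidopsis thaliana* that encode the histone H2A variants H2A.Z, H2A.X and H2A.W were examined as targets of H2A.Z deposition themselves. The set is defined by locus: the H2A.Z genes *HTA8*, *HTA9*, *HTA11* and *HTA4*, the H2A.X genes *HTA3* and *HTA5*, and the H2A.W genes *HTA6*, *HTA7* and *HTA12*. They are 9 of the 27444 protein-coding genes on the 5 nuclear chromosomes. Chromatin came from shoots of Columbia-0 plants 13 days after germination in 4 genotypes, the double mutant *arp6-1 mbd9-3*, the single mutants *arp6-1* and *mbd9-3*, and wild type. Both mutations are T-DNA insertions, each represented by 1 allele. *arp6-1* disrupts ARP6, a subunit of the chromatin remodelling complex SWR1, and *mbd9-3* disrupts MBD9, a protein that associates with it. Each genotype had 2 replicates from separate plates, and each replicate was divided between an H2A.Z and an H3 immunoprecipitation, giving 16 libraries.

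Histone H2A variants replace canonical H2A in the nucleosome. H2A.Z is exchanged into nucleosomes by SWR1 and typically marks the first nucleosomes after the transcription start and the bodies of genes that respond to signals. H2A.X carries a tail motif that is phosphorylated at DNA breaks, and H2A.W has a tail motif that interacts with DNA and is found in the heterochromatin of flowering plants. The antibody used here was raised against peptides of HTA11 and HTA9. It reports where H2A.Z protein sat on these genes, and neither their expression nor which of the H2A.Z proteins was present.

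The data are lists of summits, the single bases at which a peak of enrichment was highest, called for each replicate. There were 16 lists: H2A.Z over H3 in each genotype, and H2A.Z of wild type over that of each mutant or of *arp6-1* over that of *arp6-1 mbd9-3*, which is called H2A.Z loss here. All losses against wild type rest on the same wild-type libraries. The score of a summit is −log10 of the q value, and only q values under 0.01 were listed. Read counts are not part of the lists, which leaves the depth unknown, and an empty window says only that no peak was called. The H2A.Z over H3 lists held 1243 and 1265 summits in *arp6-1 mbd9-3* and 3827 and 7506 in *arp6-1*. Those of *mbd9-3* held 15024 and 17839, and those of wild type 29980 and 26536. The shortest of all lists held 1137. Scores were therefore read within a list, as the percentile of its summits with a lower score. Because the lists differ in length, an equal percentile in different genotypes does not mean equal enrichment. Each gene was taken with 500 bp on both sides. It had a common summit when a summit of each replicate lay in this window with no more than 200 bp between them. With 2 replicates per genotype an exact permutation test could not go below p = 0.333 (two-sided), so all comparisons between genotypes are descriptions of both replicates.

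Over H3, *HTA12* was the 1 member with a common summit in *arp6-1 mbd9-3*. *HTA8*, *HTA11* and *HTA12* had one in *arp6-1*. In *mbd9-3* there were 5 members, namely *HTA8*, *HTA11*, *HTA5*, *HTA6* and *HTA12*, and the same 5 had a common summit in wild type. Read against all protein-coding genes under the same rule, the members' 11.1% in *arp6-1 mbd9-3* stood beside a background of 1.32%, 33.3% in *arp6-1* beside 9.77%, 55.6% in *mbd9-3* beside 32.3%, and 55.6% in wild type beside 55.2%. The wild-type share was thus near the background. The shares in the mutants lay above it but rest on only 1, 3 and 5 genes. Some of these calls come from summits inside the neighbouring genes *HTB10* and AT1G08890. When a summit counted only for the gene with the nearest start, 0, 2 and 4 members remained in the mutants, and 4 in wild type. No background by that rule is given here.

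Loss of H2A.Z against wild type was common to both replicates at 6 members in *arp6-1 mbd9-3*, all but *HTA4*, *HTA3* and *HTA7*. In *arp6-1* it was common at *HTA9*, *HTA11* and *HTA6*. With these included, replicate 1 had a lost summit at 6 members and replicate 2 at 4. In *mbd9-3* there was no lost summit at any of the 9 members in either replicate, nor within 1000 bp of them. *HTA8* was the 1 member with a common loss in *arp6-1 mbd9-3* against *arp6-1*, and replicate 2 alone had a lost summit at *HTA12* too. The members' shares were 66.7% in *arp6-1 mbd9-3* beside a background of 57.9%, 33.3% in *arp6-1* beside 46.9%, 0% in *mbd9-3* beside 10.8%, and 11.1% in *arp6-1 mbd9-3* against *arp6-1* beside 3.48%. With 9 genes, a background of 10.8% corresponds to about 1 gene, so the absence of loss in *mbd9-3* is not far from it.

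**Figure D1:**
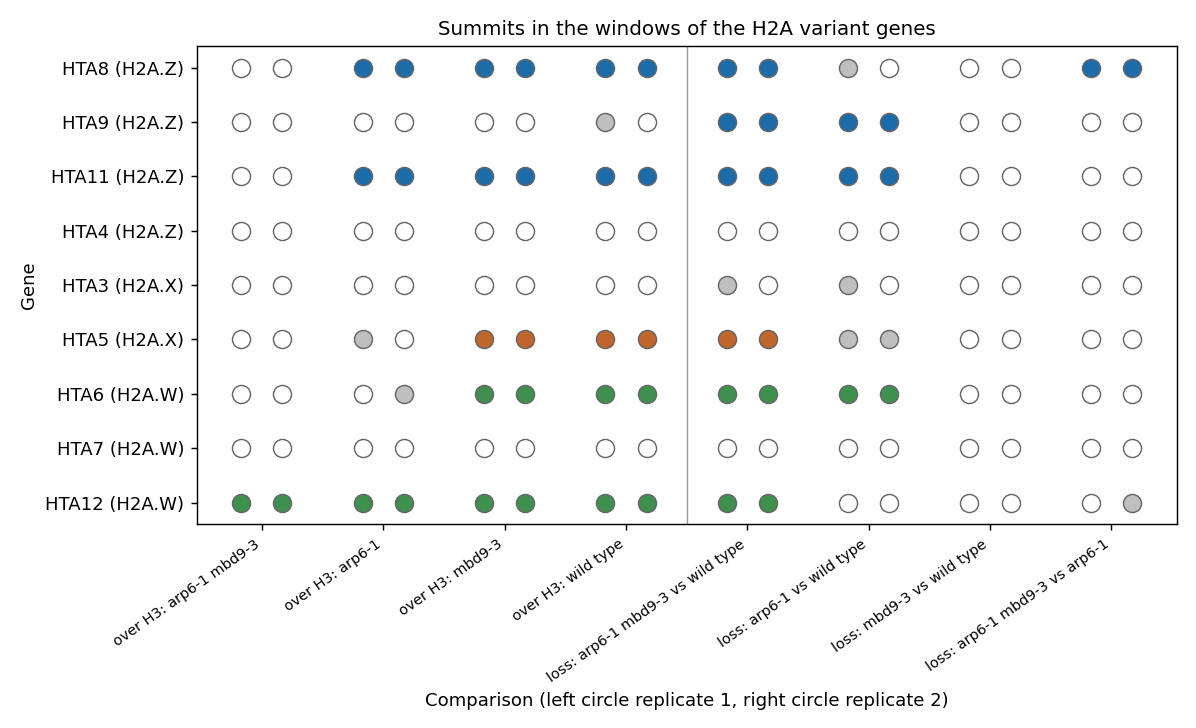
Presence of summits in the windows of the 9 members (rows) in the 8 comparisons (columns), with replicate 1 as the left and replicate 2 as the right circle. Coloured circles mark a common summit (blue H2A.Z, orange H2A.X, green H2A.W genes), grey circles a summit without a partner within 200 bp in the other replicate, and open circles no summit. *HTA4* and *HTA7* are empty throughout, and the column of loss in *mbd9-3* against wild type is empty for all 9 genes.

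Among the H2A.Z genes, *HTA8* (AT2G38810, chromosome 2, 16219220 to 16220928, minus strand of TAIR10.1) kept a common summit in both single mutants and had none in the double mutant. No summit over H3 was called in either *arp6-1 mbd9-3* replicate. In *arp6-1* the summits of replicates 1 and 2 had scores of 11.04 and 13.9. They ranked at percentiles 92.9 and 94.7 of their lists. In *mbd9-3* the scores were 20.6 and 21.9, at percentiles 96.8 and 96.3. In wild type they were 19.0 and 16.6, at percentiles 97.6 and 98.2. *HTA8* thus ranked above percentile 92 in both replicates of 3 genotypes and had no summit in the fourth. The *arp6-1* lists were far shorter than those of *mbd9-3* and wild type, so these ranks do not show equal enrichment.

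Loss was called at *HTA8* in both comparisons of the double mutant. Loss in *arp6-1 mbd9-3* against wild type had scores of 20.3 and 15.6, and loss in *arp6-1 mbd9-3* against *arp6-1* had 9.96 and 10.8, between percentiles 81.8 and 82.8 of their lists. Loss in *arp6-1* against wild type was called in replicate 1 only, with a score of 3.02 at percentile 12.1. Among 31 other core histone genes, common loss in the double mutant against *arp6-1* was found at 4, namely the H2B gene *HTB7* (scores 6.71 and 6.55 at 293 and 302 bp after the start) and the H3.1 genes AT1G09200, AT3G27360 and AT5G10400. Of the 27444 protein-coding genes, 324 (1.18%), *HTA8* included, had the same presence and absence of common summits as this gene in all 8 comparisons. No other member was among them, nor any of the 31 other core histone genes or the 10 SWR1 and MBD9 genes compared here.

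The summits of *HTA8* lay close together in the 3 genotypes that had them. They were 253 and 242 bp after the annotated start in *arp6-1*, 325 and 303 bp in *mbd9-3*, and 272 and 317 bp in wild type. The annotation gives 4 transcripts, all with the start codon 249 bp after the start, so these summits fell from 7 bases before the start codon to 76 bases after it. The first coding exon of *HTA8* is printed with those of *HTA11* and *HTA9* to show where in the exon the summits of each gene fell.

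The gene *HTA11* (AT3G54560, chromosome 3, 20196140 to 20197726, plus strand), the closest relative of *HTA8*, also carried H2A.Z around its start codon. In *arp6-1 mbd9-3* no summit over H3 was called. In *arp6-1* the best scores were 5.18 and 7.57, at percentiles 57.3 and 76.7, and in *mbd9-3* they were 17.6 and 8.28, at percentiles 94.4 and 69.1. In wild type they were 9.80 and 6.06, at percentiles 77.0 and 58.0. The replicates of *HTA11* differed more in rank than those of *HTA8*, and its percentiles in *arp6-1*, *mbd9-3* and wild type overlap. With lists of such unequal length, the overlap does not show that its enrichment was kept in *arp6-1*.

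Unlike *HTA8*, *HTA11* showed a common loss in *arp6-1* against wild type, with scores of 4.75 and 9.16, although summits over H3 remained in both *arp6-1* replicates. These summits lay 109 bp apart, and the call was lost when replicate summits within 100 bp or scores of at least 5 were required. Loss in *arp6-1 mbd9-3* against wild type had scores of 7.30 and 9.13. No loss was called against *arp6-1*. Its best summits lay 333 and 395 bp after the start in *arp6-1*, 401 and 410 bp in *mbd9-3*, and 357 and 440 bp in wild type, and the start codon lies at 392 bp. In *mbd9-3* replicate 2 had 2 further summits inside the gene, at 704 and 1123 bp, which replicate 1 did not have. Summits at 1984 bp in *mbd9-3* and 2003 bp in wild type, in replicate 2 only, lay inside the neighbouring gene AT3G54570. The record of *HTA11* over the 8 comparisons was that of 907 protein-coding genes (3.3%), itself included. Among them were the H2B genes *HTB6* and *HTB8* and the H3.1 gene AT5G10390.

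At *HTA9* (AT1G52740, chromosome 1, 19645236 to 19646485, plus strand), H2A.Z over H3 was barely called in any genotype, but loss was. No summit over H3 was found in *arp6-1 mbd9-3*, *arp6-1* or *mbd9-3*. In wild type replicate 1 had a summit of score 3.297, at percentile 13.8 and 294 bp after the start, and replicate 2 had none. Loss against wild type was nevertheless common in *arp6-1 mbd9-3*, with scores of 7.91 and 6.86 at 258 and 254 bp. It was also common in *arp6-1*, with scores of 6.43 and 6.12 at 279 and 254 bp. These scores ranked between percentiles 56.8 and 63.0 of their lists. In all, 1471 protein-coding genes (5.36%), *HTA9* included, had common summits in these 2 comparisons and in no other, among them the canonical H2A gene *HTA13* and the SWR1 subunit gene *RIN2*.

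The start codon of *HTA9* lies 173 bp after the start, so that its loss summits fell 81 to 106 bases after the start codon, at the end of the first coding exon. The first coding exons below run from the start codon in the gene's own direction, with capitals from the first to the last summit of any list that fell in the printed stretch. For *HTA9* the stretch goes on from the exon of 108 bases into the first intron, to 10 bases past the wild-type summit there. Summits of *HTA8* and *HTA11* that lay before the start codon are outside the stretch.
HTA8 (chr2:16220566-16220679, minus strand): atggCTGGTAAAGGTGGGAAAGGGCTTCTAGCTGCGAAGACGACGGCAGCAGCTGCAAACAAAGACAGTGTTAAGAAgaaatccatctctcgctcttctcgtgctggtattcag
HTA11 (chr3:20196532-20196645, plus strand): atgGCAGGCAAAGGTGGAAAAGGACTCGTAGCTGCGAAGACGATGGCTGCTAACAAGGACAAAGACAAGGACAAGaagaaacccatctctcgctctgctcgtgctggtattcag
HTA9 (chr1:19645409-19645540, plus strand): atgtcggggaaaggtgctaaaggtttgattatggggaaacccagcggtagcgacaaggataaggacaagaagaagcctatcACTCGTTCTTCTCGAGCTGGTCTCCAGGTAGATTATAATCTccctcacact

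In *HTA8* and *HTA11* the capitals cover bases 5 to 77 and bases 4 to 75 of exons of 114 bases each, while in *HTA9* they begin at base 82. The start codon lies nearer to the gene start in *HTA9* (173 bp) than in *HTA8* (249 bp) and *HTA11* (392 bp). The exons of *HTA8* and *HTA11* were identical at 92 of 114 aligned bases (80.7%), those of *HTA8* and *HTA9* at 68.5%, and those of *HTA9* and *HTA11* at 73.1%. The encoded proteins were 90.4% identical between *HTA8* and *HTA11*, 85.1% between *HTA9* and *HTA11*, and 80.6% between *HTA8* and *HTA9*. Only reads with a single place in the genome had been kept. Of the stretches of 50 bases in the *HTA8* window, 2 of 2660 occurred more than once in the nuclear genome, and none did in the windows of *HTA9* and *HTA11*. The length of the reads is not given in the sources used here.

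*HTA4* (AT4G13570, chromosome 4, 7884516 to 7885982, plus strand), the most divergent H2A.Z gene, had no summit in any of the 16 lists and none within 1000 bp. Its protein of 124 residues was 61.3% to 64.3% identical to those of the other 3 H2A.Z genes. The microRNA gene *MIR841a* lies inside it on the opposite strand. In this window 164 of 2418 stretches of 50 bases (6.78%) occurred more than once in the nuclear genome, more than in any other member's window. Repeats inside the window itself were counted too. It was among 8689 protein-coding genes (31.7%) without a common summit in any comparison, which include *HTA3* and *HTA7*.

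**Figure D2:**
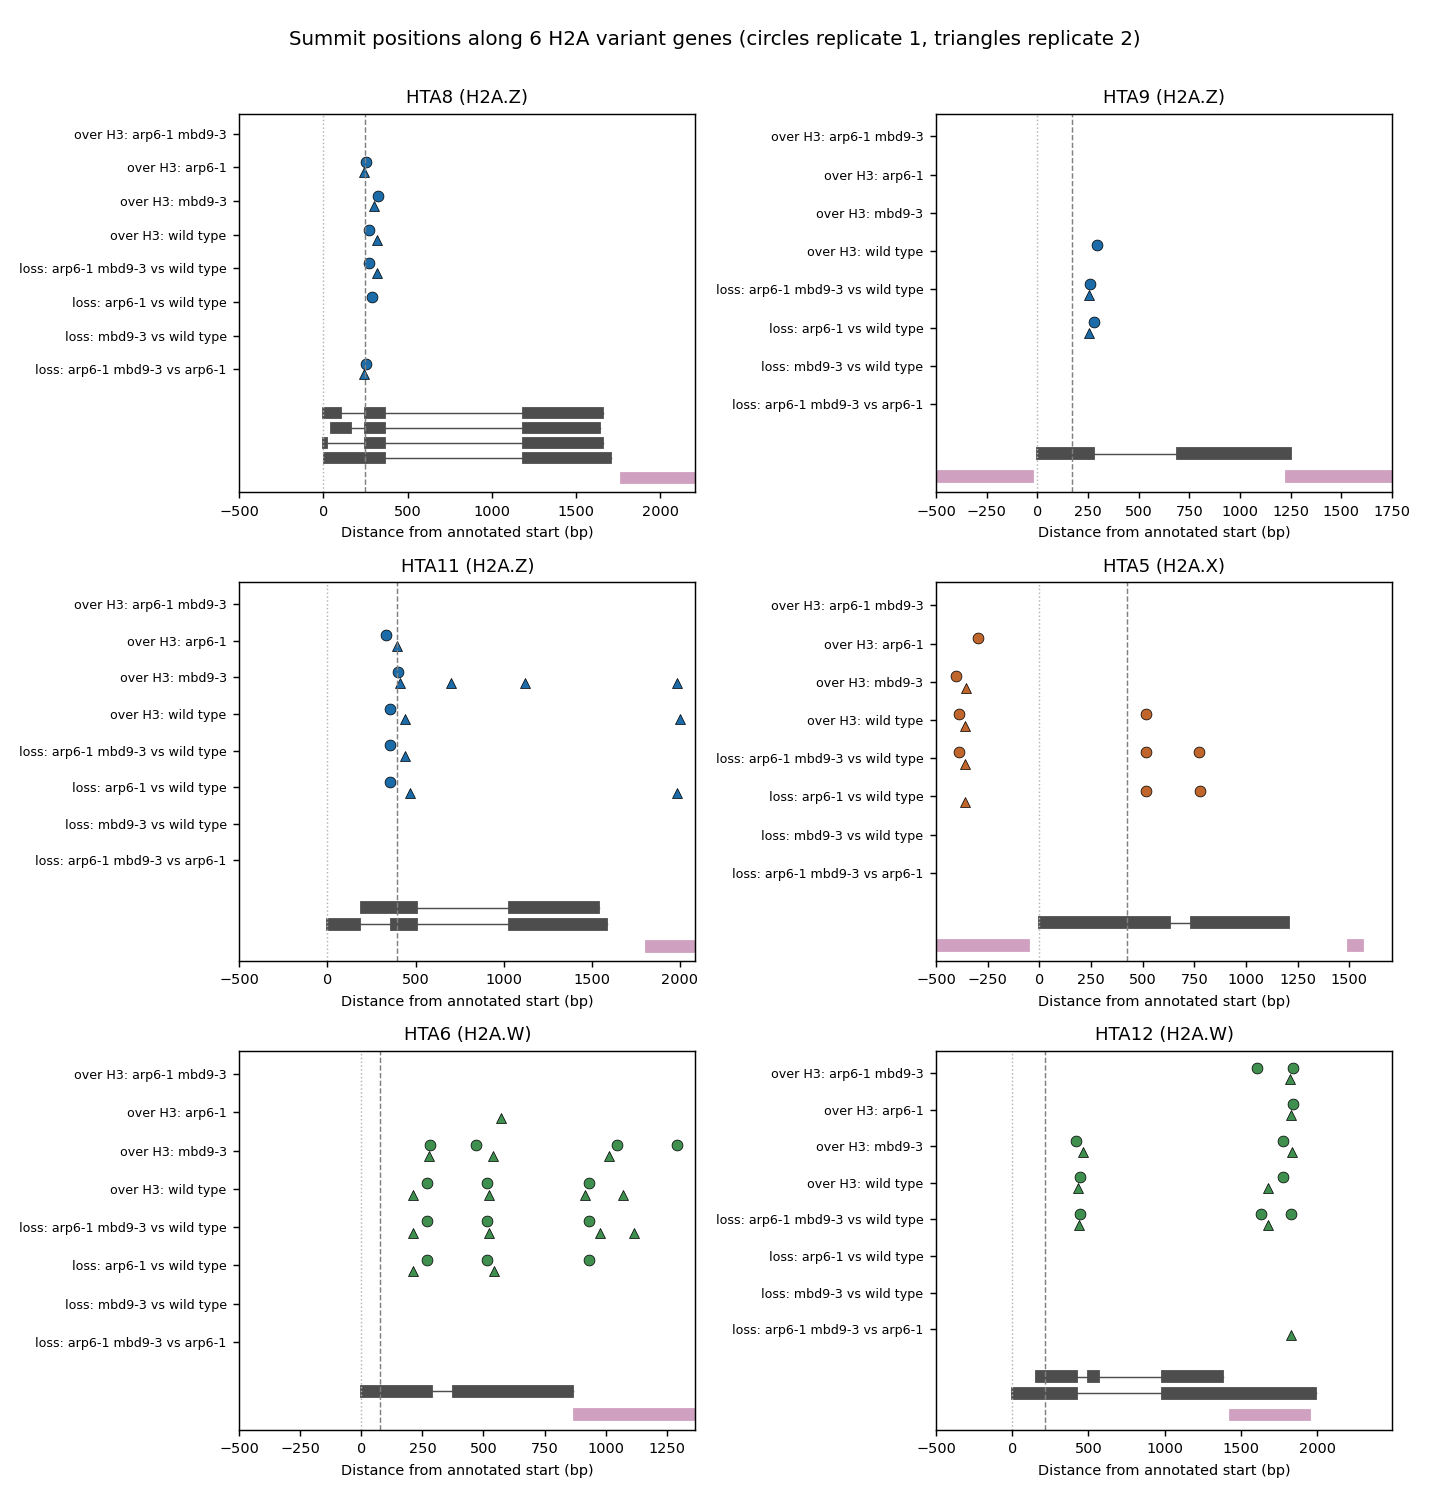
Summits along the 6 members that had a common summit in any comparison, by distance from the annotated gene start (bp) on the horizontal axis and by comparison on the vertical axis, with circles for replicate 1 and triangles for replicate 2. Grey boxes are the exons of each annotated transcript, pink boxes neighbouring genes, the dotted line the gene start and the dashed line the start codon. Summits of *HTA8* and the best summits of *HTA11* lie near the start codon. The windows of *HTA5*, *HTA6*, *HTA11* and *HTA12* hold summits inside a neighbouring gene.

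The H2A.X genes encode nearly the same protein, with 98.6% identity over 142 residues. Inside the genes themselves both had summits in replicate 1 only, and the common summits of *HTA5* lay in a neighbouring gene. *HTA3* (AT1G54690, chromosome 1, 20414316 to 20415287, minus strand) had no summit over H3 in any genotype. Loss against wild type was called in replicate 1 only, 192 bp after the start, with a score of 5.76 in *arp6-1 mbd9-3* and 4.35 in *arp6-1*. With 1 replicate each, neither counts as a common summit. The position also lies inside the antisense long non-coding RNA gene AT1G07983, 47 bp from its start, and the 2 genes cannot be told apart there. The nearest other summits were 810 to 871 bp upstream of *HTA3*, outside its window and 199 to 260 bp from the start of AT1G54700.

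*HTA5* (AT1G08880, chromosome 1, 2846894 to 2848100, minus strand) had common summits, but all of them lay upstream, inside the divergent neighbour AT1G08890, whose start is 49 bp away. Over H3 there was no summit in *arp6-1 mbd9-3*, and in *arp6-1* there was 1 of score 5.56 in replicate 1, at 298 bp upstream. In *mbd9-3* the upstream summits had scores of 7.38 and 5.27, and in wild type 6.74 and 10.97. Measured from the start of AT1G08890, these *HTA5* window summits lay 249 bp into that gene in *arp6-1*, 357 and 305 bp in *mbd9-3*, and 339 and 311 bp in wild type. They are in coding exon or intron sequence of AT1G08890, and they cannot be told apart from H2A.Z that belongs to that gene.

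Inside *HTA5* itself only replicate 1 had summits. In wild type over H3 it had 1 at 515 bp after the start, with a score of 5.77. For loss against wild type, replicate 1 had summits of score 4.38 at 515 bp and 3.33 at 771 bp in *arp6-1 mbd9-3*, and of 5.39 at 515 bp and 4.47 at 776 bp in *arp6-1*. Replicate 2 of the loss in *arp6-1* had only the upstream summit, so that both replicates had a summit in the window but not at the same place. All 3 common calls of *HTA5* were lost with a flank of 250 bp or none. They were lost as well when a summit was assigned only to the gene with the nearest start.

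Among the H2A.W genes, *HTA6* (AT5G59870, chromosome 5, 24115354 to 24116220, minus strand) carried summits in both exons of a gene of 867 bp. No summit over H3 was called in *arp6-1 mbd9-3*, and in *arp6-1* there was only 1 in replicate 2, with a score of 3.13 at percentile 18.9. In *mbd9-3* the best scores were 17.5 and 31.8, at percentiles 94.2 and 99.3. In wild type the best scores were 18.05 and 14.8, at percentiles 96.8 and 96.7. *HTA6* thus ranked high in *mbd9-3* and wild type and nearly empty in both genotypes with *arp6-1*.

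The summits inside *HTA6* lay at similar positions in *mbd9-3* and wild type. In *mbd9-3* they lay at 281 and 470 bp in replicate 1 and at 277 and 538 bp in replicate 2. In wild type they lay at 268 and 514 bp in replicate 1 and at 212 and 522 bp in replicate 2. All of these are in coding exons. Further summits past the end of the gene, between 917 and 1294 bp, lay in the downstream neighbour AT5G59865. Loss against wild type had best scores of 9.29 and 16.2 in *arp6-1 mbd9-3* and of 8.57 and 8.74 in *arp6-1*, again at both positions in the gene. The pattern of *HTA6* was a frequent one, shared by 3885 protein-coding genes (14.2%). Among them were the H2B genes *HTB2*, *HTB3* and *HTB5*, the H3.1 gene AT5G65360 and the H4 gene AT2G28740.

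*HTA12* (AT5G02560, chromosome 5, 575225 to 577216, plus strand) had 2 separate sites that differed between genotypes. At the 5′ site no summit over H3 was called in *arp6-1 mbd9-3* or *arp6-1*. In *mbd9-3* the scores were 5.85 at 417 bp and 5.39 at 465 bp, and in wild type 6.45 at 447 bp and 7.53 at 431 bp. These summits straddled the end of the first coding exon. Loss in *arp6-1 mbd9-3* against wild type was called there in both replicates, with scores of 6.38 and 5.59. The first coding exon of *HTA6* and that of *HTA12* with the start of its intron are given to show where their 5′ summits fell, with capitals as above.
HTA6 (chr5:24115932-24116144, minus strand): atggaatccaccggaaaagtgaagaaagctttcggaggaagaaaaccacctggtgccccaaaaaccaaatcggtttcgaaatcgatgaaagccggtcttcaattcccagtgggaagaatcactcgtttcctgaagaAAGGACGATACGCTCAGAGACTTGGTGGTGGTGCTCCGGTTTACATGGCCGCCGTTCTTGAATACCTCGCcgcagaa
HTA12 (chr5:575437-575700, plus strand): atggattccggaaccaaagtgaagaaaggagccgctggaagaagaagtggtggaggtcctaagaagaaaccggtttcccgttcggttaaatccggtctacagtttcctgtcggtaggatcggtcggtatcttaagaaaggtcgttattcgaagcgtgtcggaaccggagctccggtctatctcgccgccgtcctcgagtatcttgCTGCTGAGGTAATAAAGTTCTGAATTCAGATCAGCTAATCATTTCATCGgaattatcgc

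Both genes have a first coding exon of 213 bases, and the summits began at base 137 of the stretch in *HTA6* and at base 206 in *HTA12*. The 2 exons were identical at 139 of 213 bases (65.3%). Their 5′ summits lay further from the start codon than those of *HTA8* and *HTA11*. The start codon itself lies 76 bp after the gene start in *HTA6* and 212 bp in *HTA12*, against 249 and 392 bp in *HTA8* and *HTA11*. Measured from the gene start, the 5′ summits of *HTA6* (212 to 281 bp) lay no further in than those of *HTA8* (242 to 325 bp). Those of *HTA12* (417 to 465 bp) lay further in than those of *HTA8* and overlapped those of *HTA11* (333 to 440 bp).

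The 3′ site of *HTA12* was the 1 place among all members where H2A.Z summits over H3 were called in both replicates of every genotype. In *arp6-1 mbd9-3* replicate 1 had scores of 4.39 at 1605 bp and 5.14 at 1845 bp, and replicate 2 had 2.26 at 1823 bp. In *arp6-1* the scores were 10.3 at 1841 bp and 33.4 at 1828 bp. In *mbd9-3* they were 19.5 at 1776 bp and 27.4 at 1834 bp, and in wild type 14.7 at 1776 bp and 10.97 at 1676 bp. Replicate 2 of *arp6-1* placed this summit at percentile 99.8 of its list and replicate 1 at percentile 91.2. In *arp6-1 mbd9-3* the best ranks were percentiles 80.05 and 7.11, so that the replicates were far apart. Loss in *arp6-1 mbd9-3* against wild type was called at the 3′ site in both replicates, as at the 5′ site. Replicate 1 had loss scores of 3.33 at 1632 bp and 6.59 at 1829 bp, and replicate 2 had 5.14 at 1676 bp.

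This site lies inside *HTB10* (AT5G02570, chromosome 5, 576655 to 577176, minus strand), an H2B gene that overlaps the 3′ end of *HTA12* by 522 bp on the opposite strand. Of the annotated *HTA12* transcripts, 1 reaches over it and the other ends before it. Counted from the start of *HTB10*, the 3′ summits lay 346, 106 and 128 bp into that gene in *arp6-1 mbd9-3*, 110 and 123 bp in *arp6-1*, 175 and 117 bp in *mbd9-3*, and 175 and 275 bp in wild type. The start of *HTB10* is nearer to them than that of *HTA12*, and H2A.Z at the end of *HTA12* and at the beginning of *HTB10* cannot be told apart. In both genotypes with *arp6-1*, 4 summits of the site fell within 23 bases, in capitals below on the coding strand of *HTB10*.
HTB10 (chr5:577045-577074, minus strand): gcgaAAGAAGGAGGAACGAGCGAGATTgtc

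When summits were assigned only to the gene with the nearest start, *HTA12* had no common summit over H3 in *arp6-1 mbd9-3* or *arp6-1*, and its 5′ site left it with common summits in *mbd9-3*, wild type and the loss in *arp6-1 mbd9-3*. A score of at least 5 also ended the call in *arp6-1 mbd9-3*. No loss at *HTA12* was called in *arp6-1* against wild type in either replicate. Loss in *arp6-1 mbd9-3* against *arp6-1* was called in replicate 2 only, with a score of 17.5 at 1828 bp. Its record over all 8 comparisons was the rarest among the members, shared by 92 genes (0.335%), *HTB10* included.

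*HTA7* (AT5G27670, chromosome 5, 9792509 to 9793560, minus strand) had no summit in its window in any list. Summits stood just outside it. In *arp6-1* over H3 they lay 551 and 543 bp upstream of the start. In *mbd9-3* the nearest were 542 and 509 bp upstream, and in wild type 569 and 519 bp. They fell in the 3′ part of the gene *RECQSIM*. With a flank of 1000 bp, which also takes in summits of the downstream gene *DEG14*, *HTA7* had a common summit in 5 of the 8 comparisons. The proteins of *HTA6* and *HTA7* were 78.8% identical, those of *HTA7* and *HTA12* 76.9%, and those of *HTA6* and *HTA12* 73.3%.

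By the mean rank of their best summits in wild type, the members with summits stood in the order *HTA8*, *HTA6*, *HTA12*, *HTA5*, *HTA11* and *HTA9*. *HTA8* (percentiles 97.6 and 98.2), *HTA6* (96.8 and 96.7) and *HTA12* (92.6 and 89.1) did not overlap one another between replicates. The ranks of *HTA5* (55.9 and 89.1) and *HTA11* (77.0 and 58.0) overlapped, the higher value of *HTA5* equalled the lower one of *HTA12*, and *HTA9* was called in a single replicate at percentile 13.8. In *mbd9-3*, *HTA8* (96.8 and 96.3), *HTA6* (94.2 and 99.3) and *HTA12* (96.1 and 98.4) overlapped. The ranks of *HTA12* and *HTA5* rest on summits inside *HTB10* and AT1G08890. The 5′ site of *HTA12* ranked at percentiles 53.7 and 46.2 in *mbd9-3* and at 53.4 and 71.6 in wild type, and the wild-type summit inside *HTA5* at 46.6 in replicate 1 alone. By these summits *HTA11* stood next after *HTA6* in wild type, and the ranks of *HTA11* and *HTA12* overlapped.

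**Figure D3:**
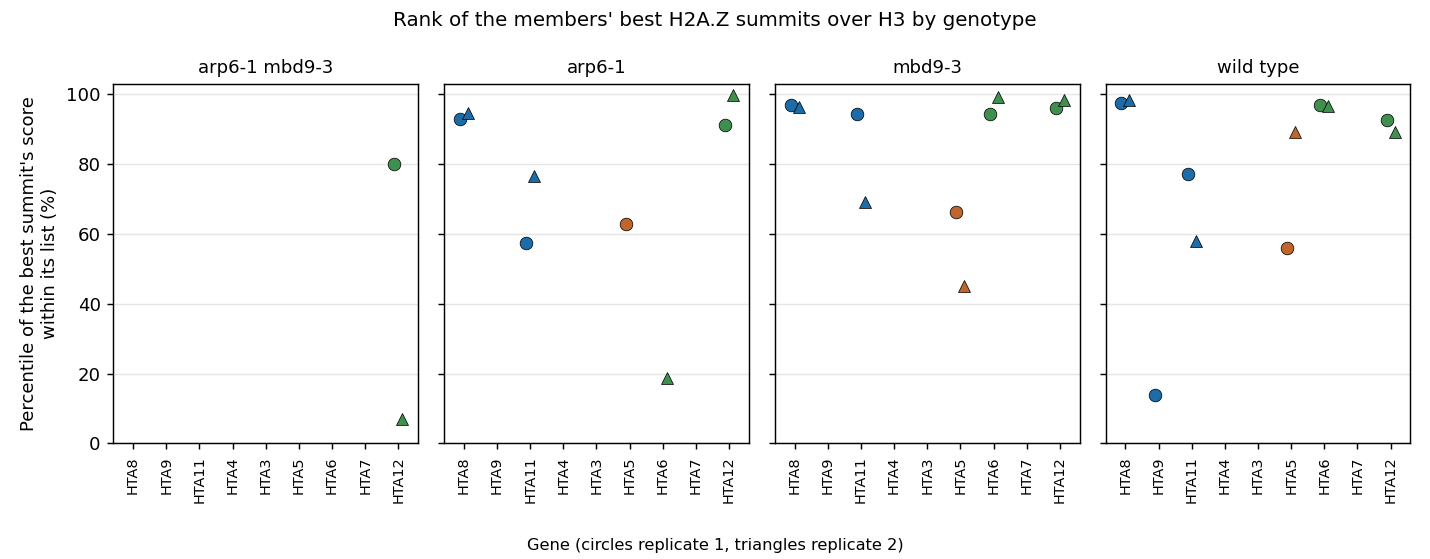
Rank of each member's best H2A.Z summit over H3, as the percentile of the list's summits with a lower score (vertical axis, %), in the 4 genotypes (panels), with circles for replicate 1 and triangles for replicate 2 and the colours blue, orange and green for H2A.Z, H2A.X and H2A.W genes. *HTA8* lies at percentile 92.9 or above in *arp6-1*, *mbd9-3* and wild type and has no point in *arp6-1 mbd9-3*, where *HTA12* alone is shown. The lists differ in length between panels.

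The distance of the members' summits from the gene start was compared with that of all genes. In wild type, 13872 protein-coding genes had a common summit inside them. The first such summit, placed midway between its 2 replicate summits, lay a median of 358 bp after the start. The range from the 25th to the 75th percentile was 266 to 512 bp. The first common wild-type summits of *HTA8* (272 and 317 bp), *HTA11* (357 and 440 bp) and the 5′ site of *HTA12* (447 and 431 bp) lay in that range. Those of *HTA6* lay at 268 bp in replicate 1 and 212 bp in replicate 2, and the point midway between them lay below that range.

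The other core histone genes (4 canonical H2A, 11 H2B, 5 H3.1, 3 H3.3 and 8 H4 genes, 31 in all) gave a point of comparison within the same pathway. A common summit over H3 was found at 1 of 31 (3.23%) in *arp6-1 mbd9-3*, 7 (22.6%) in *arp6-1*, 13 (41.9%) in *mbd9-3* and 16 (51.6%) in wild type. The 1 gene in *arp6-1 mbd9-3* was *HTB10*, through the site it shares with *HTA12*. The 5 H3.1 genes all had a common summit in *mbd9-3* and in wild type, while the 3 H3.3 genes had none in any genotype. Among the H2B genes 7 of 11 had one in *mbd9-3* and 8 in wild type, and among the H4 genes 1 of 8 and 2. The shares of all protein-coding genes were 32.3% in *mbd9-3* and 55.2% in wild type, and 1.32% in *arp6-1 mbd9-3* and 9.77% in *arp6-1*. Of the canonical H2A genes, only *HTA10* had a common summit over H3, in wild type. Common loss was found at 21 of 31 (67.7%) in *arp6-1 mbd9-3* against wild type and 17 (54.8%) in *arp6-1* against wild type. It was found at 2 (6.45%) in *mbd9-3* against wild type, and 4 (12.9%) in *arp6-1 mbd9-3* against *arp6-1*. The backgrounds of loss were 57.9%, 46.9%, 10.8% and 3.48% in this order. The 2 with loss in *mbd9-3* were *HTB1*, with best scores of 7.85 and 4.93, and the H4 gene AT3G53730, with 3.31 and 6.89.

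**Figure D4:**
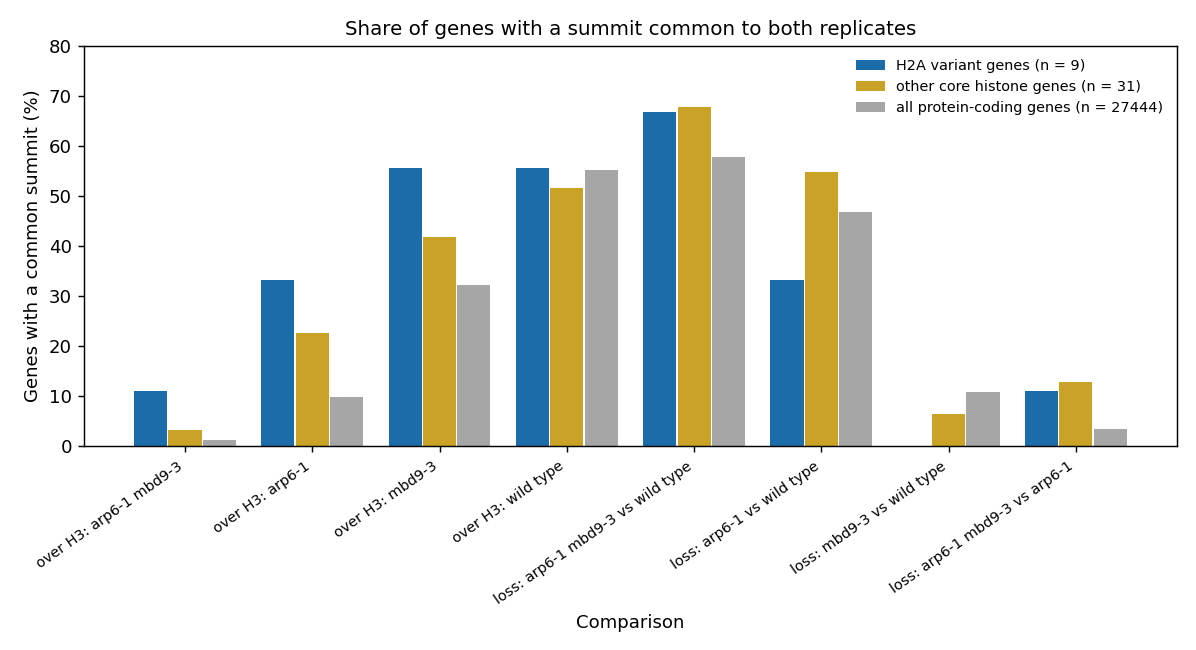
Share of genes with a summit common to both replicates (vertical axis, %) in the 8 comparisons for the 9 H2A variant genes, the other 31 core histone genes and all 27444 protein-coding genes. The bars for the variant genes stand at 55.6% in *mbd9-3* and in wild type over H3, and there is no bar for them in the loss in *mbd9-3* against wild type; 1 gene is 11.1% of the members.

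Of the 10 genes for SWR1 subunits and MBD9, which make the machinery that deposits H2A.Z, none had a common summit over H3 in *arp6-1 mbd9-3*, *arp6-1* or *mbd9-3*, and 3 had one in wild type, *SWC4*, *SWC2* and *MBD9*. The share of all protein-coding genes over H3 was 1.32%, 9.77%, 32.3% and 55.2% in these genotypes. Common loss was found at 6 of 10 in *arp6-1 mbd9-3* against wild type, beside a background of 57.9%. It was found at 6 in *arp6-1* against wild type, beside 46.9%. In *mbd9-3* against wild type it was found at 3, beside a background of 10.8%, where the H2A variant genes had 0. These were *PIE1*, the ATPase of the complex, with best scores of 4.83 and 2.78, *ARP4*, with 4.65 and 8.13, and *MBD9* itself, with 9.95 and 11.3, which carries the insertion in *mbd9-3*. All 3 genes are longer than any member, so their windows can hold more summits, and the effect of length was not tested.

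The windows from 250 bp before to 50 bp after each gene start, read from the TAIR10.1 genome, were searched on both strands for motifs known from histone promoters. The octamer CGCGGATC occurred in 1 of the 9 members, *HTA6*, where it begins 116 bp before the start, and in 0.146% of all 27443 such windows. It occurred in 3 of 5 H3.1, 2 of 4 canonical H2A, 1 of 3 H3.3, 2 of 8 H4 and 0 of 11 H2B genes. The hexamer ACGTCA was in none of the 9 members and in 9.19% of all windows. It was in 9 of the 11 H2B, 2 of 5 H3.1, 1 of 3 H3.3, 1 of 8 H4 and 0 of 4 canonical H2A genes. None of the E2F motifs TTTCCCGC, TTTGGCGC, TTTGCCGC and TTTCGCGC was in a member's window, and 1.76% of all windows held at least 1 of them. So did 2 of 8 H4 genes and 1 of 11 H2B genes. With only 9 members, the absence of the hexamer and of E2F motifs is not far from these backgrounds. The octamer in *HTA6* was thus the only match of any searched motif among the members.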

How the data were processed

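H2A.Z and H3 ChIP-seq libraries of 4 genotypes were used, with 2 replicates each. Uniquely aligned reads (Bowtie, TAIR10 nuclear genome) were freed of duplicates by the authors with SAMtools. Peaks were then called per replicate in MACS2 2.1.1 (q under 0.01, extension size 200). They deposited summit lists whose score is the −log10 of the q value. How H2A.Z libraries were scaled between genotypes is not given in the sources used here, and its effect on the losses was not tested.

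Genes were taken from the TAIR10.1 annotation. There were 0 summits beyond chromosome ends, and 45.5% of wild-type replicate 1 summits lay within 500 bp after a protein-coding start, against 11.9% and 12.5% when moved by 1000 bp to either side. Windows, common summits, percentiles and motifs were computed in Python 3.11.15 and figures drawn with matplotlib 3.10.9. Proteins were translated from the transcript with the longest coding sequence and aligned globally with Biopython 1.88. The procedure was tested on simulated data. All 9 members are named. Other histone and SWR1 genes are named where they had a common loss in *mbd9-3* or in *arp6-1 mbd9-3* against *arp6-1*. They are also named where they shared, in all 8 comparisons, the record of a member with a common summit, or to describe their list. Neighbours are named where a summit lay in them. Genes named to describe a list, and the search for stretches of 50 bases, were chosen after seeing the data. The members and lists were chosen with earlier results of these data known. Alternatives were other flanks, joining distances and score limits, assignment to the nearest start, and single replicates.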

Additional observations from a re-analysis of the deposited data

How the results depend on the processing

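No paired analysis was possible because the results come from no test, and each loss had already been called between libraries of the same replicate number. Of 72 combinations of member and comparison, no flank or a flank of 250 bp lost 3 common summits each, all of *HTA5*. A flank of 1000 bp gained 6. A joining distance of 100 bp lost 1, one of 500 bp changed 0, and any distance within the window gained 1. A score of at least 5 lost 2, one of at least 10 lost 15, and assignment to the nearest start lost 5. Counts that moved by over 1.5 times were these. In *arp6-1 mbd9-3* over H3 the 1 member became 0 at scores of at least 5 or 10 and with the nearest start. A score of at least 10 left 3 members in *mbd9-3* and 3 in wild type over H3, 1 in the loss in *arp6-1 mbd9-3* and 0 in that in *arp6-1* against wild type, and 0 in *arp6-1 mbd9-3* against *arp6-1*. Single replicates gave 4 to 6 members with loss in *arp6-1* against wild type and 1 to 2 in *arp6-1 mbd9-3* against *arp6-1*. The 0 members with loss in *mbd9-3* could not change under any of the 11 alternatives, because no lost summit lay within 1000 bp of a member. Among the 9542 genes of the members' lengths, 867 to 1992 bp, the backgrounds ran from 1.95% in *arp6-1 mbd9-3* to 59.1% in wild type over H3, and from 2.98% in *arp6-1 mbd9-3* against *arp6-1* to 56.1% in *arp6-1 mbd9-3* against wild type for the losses. Depth is unknown, so a window without a summit is not evidence that H2A.Z was absent.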
